A study of Mus musculus with 6 samples.

Results

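The cytosolic ribosome reads messenger RNA into protein. Its large subunit joins amino acids and its small subunit decodes the message, and each carries its own set of proteins, named Rpl and Rps, around a core of ribosomal RNA. Most ribosomal protein transcripts are short, abundant and begin with a run of pyrimidines (the 5′ terminal oligopyrimidine, or TOP, start) through which the kinase mTORC1 controls their translation. In muscle fibres ribosome supply is a known limit on protein synthesis and growth. The genes described here are all symbols of the deposited count table that carry an Rpl or Rps name followed by a number, or the names Rpsa, Rplp0, Rplp1 and Rplp2. Symbols marked as pseudogenes (4) and the S6 kinases and their relatives (8) were left out. This gave 82 of 12625 genes, of which 49 belonged to the large subunit by name and 33 to the small.

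Of these 82 symbols, 76 were core subunits (45 large, 31 small). A further 5 were additional copies or paralogs, namely Rpl7l1, Rpl22l1, Rpl36al, Rps27l and Rpl37rt, the last annotated as a transcribed processed pseudogene. The remaining symbol, Rps19bp1, is a nucleolar protein that binds RPS19 and is not a subunit. GENCODE M21 lists 86 coding genes that fit the name rule. Of these, 5 had no values among the counts analysed here, namely Rpl10l, Rpl26, Rpl39l, Rpl3l and Rps27rt. Rpl26 is therefore not among the 45 large core genes. RNA was sequenced from C2C12 myotubes, made from mouse myoblasts in culture, in 3 libraries given vehicle and 3 given recombinant murine RANKL, the ligand of the receptor RANK. Per the series' design, the RANKL myotubes had differentiated for 5 days and were exposed to 100 ng per ml for 72 h; dose and time are not stated for vehicle. No other agent or allele is named for either group, and C2C12 is a single line grown without the nerve, vessels and immune cells of muscle. The question was what RANKL does to cultured myotubes. Nothing in the labels says that replicates were separate cultures, so the p-values reflect spread among libraries that may be technical.

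Library totals ranged from 32732604 to 39677999 counts. All 10 myotube markers were measured, at a median of 1264 counts per 1000000 (CPM, scaled by edgeR's TMM factors) under vehicle. Of 8 immune cell markers only Cd68 was measured, at 0.391 to 1.22 CPM. Over all genes edgeR's quasi-likelihood test, with Benjamini-Hochberg adjusted p under 0.05, called 676 higher and 947 lower under RANKL. With total counts in place of TMM scaling these were 1070 and 626.

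Because the TOP start is what these genes are best known to share, pyrimidine runs near their annotated starts are shown first; a run found this way need not be the TOP start itself. In the RefSeq promoter windows on GRCm38.p6 (the mm10 assembly), which were found for 62 of the 82 genes, 48 (77.4%) held a pyrimidine run within 50 bases of the start. A run was counted as a C followed by at least 7 bases that are each C or T, on the gene's own strand. The same run stood in 27.3% of 9625 genes of the count table with a window and in 30.9% of 68 mitochondrial ribosomal protein genes, which serve a different ribosome. On the opposite strand the shares were 22.6% for the ribosomal protein genes and 30.4% for the count table. Of the 48 runs, 14 began within 5 bases of the annotated start, and the others began up to 46 bases before or 42 bases after it. The windows below give where each run begins, counted from 1 at the first base of the annotated transcript and from -1 at the base before it. A run that ends the window may go on beyond it. The windows read 5′ to 3′ on the gene's strand, with the pyrimidine run in capitals, and show genes that rose (Rpl22l1, Rps15a, Rpl10, Rpl38, Rpl39, Rps25), the most abundant (Rpl41, Rps15) and the lowest measured (Rpl34, Rps27).
Rpl22l1 (chr3:28805500-28805529, plus strand, run from 4): gcaagcccgttCTCTTCCCacggctgcagc
Rps15a (chr7:118116143-118116172, minus strand, run from -15): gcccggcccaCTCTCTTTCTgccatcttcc
Rpl10 (chrX:74270836-74270865, plus strand, run from 42): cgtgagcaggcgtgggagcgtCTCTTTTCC
Rpl38 (chr11:114668569-114668598, plus strand, run from 1): gaagcctcgttCTTTCCCCgttctcttcgg
Rpl39 (chrX:37085173-37085202, minus strand, run from 37): gttcttccggtcccggCCTTTCTCTTCTCC
Rps25 (chr9:44407684-44407713, plus strand, run from -22): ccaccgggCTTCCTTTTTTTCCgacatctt
Rpl41 (chr10:128549119-128549148, minus strand, run from 41): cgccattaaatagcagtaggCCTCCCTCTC
Rps15 (chr10:80292446-80292475, plus strand, run from 26): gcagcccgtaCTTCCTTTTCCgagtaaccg
Rpl34 (chr3:130730393-130730422, minus strand, run from -13): ctgacgcgccgCCTTCCCTgacgtacttcc
Rps27 (chr3:90213632-90213661, minus strand, run from -2): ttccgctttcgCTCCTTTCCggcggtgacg

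The run was found in genes that rose and in genes that did not. The 48 genes with a run had a median log2 fold change of 0.091, and 6 were higher. The 14 genes whose window held no such run had a median of 0.076, with 2 higher, Rps3 and Rps4x. The 20 genes with no window had a median of 0.080, with 5 higher. Over all genes 5.35% were called higher. The ETS factor core CGGAAG was searched on both strands of the whole 300-base window. It stood in 67.7% of the 62 genes, 54.4% of the 68 mitochondrial ribosomal protein genes and 31.9% of the count table. TATAAA, searched the same way, stood in 9.68%, 5.88% and 6.93% in that order. These matches describe letters in the window and not use of a site.

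Ribosomal protein transcripts were slightly more abundant under RANKL. The test called 13 of the 82 genes higher (15.9%), where 5.35% of all genes were called higher, and called 0 lower, where 7.5% of all genes were. Fold changes lay above 0 for 78 of the 82 genes, at a median log2 fold change of 0.085 against 0.005 for all genes. An unadjusted p under 0.05 by edgeR was reached by 41 of the 82 genes and by 27.2% of all genes. Among genes outside the 82 with a mean of at least 50 CPM, 1601 of 4308 reached it. Of those 4308 genes 5.20% were called higher and 14.8% lower. The number of calls changed with the libraries and the settings used. It was 1 without vehicle replicate 1 and 2 without RANKL replicate 2. Removing a length trend left 5 (6.10%, where 6.56% of all genes were called higher) at a median of 0.031. Changes were small in every gene of the set, with log2 fold changes from -0.20 to 0.27. The 3 RANKL libraries all exceeded the 3 vehicle libraries in 27 genes (14.9% of all genes did so), and the reverse held in 0 (16.6% of all genes).

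**Figure D1:**
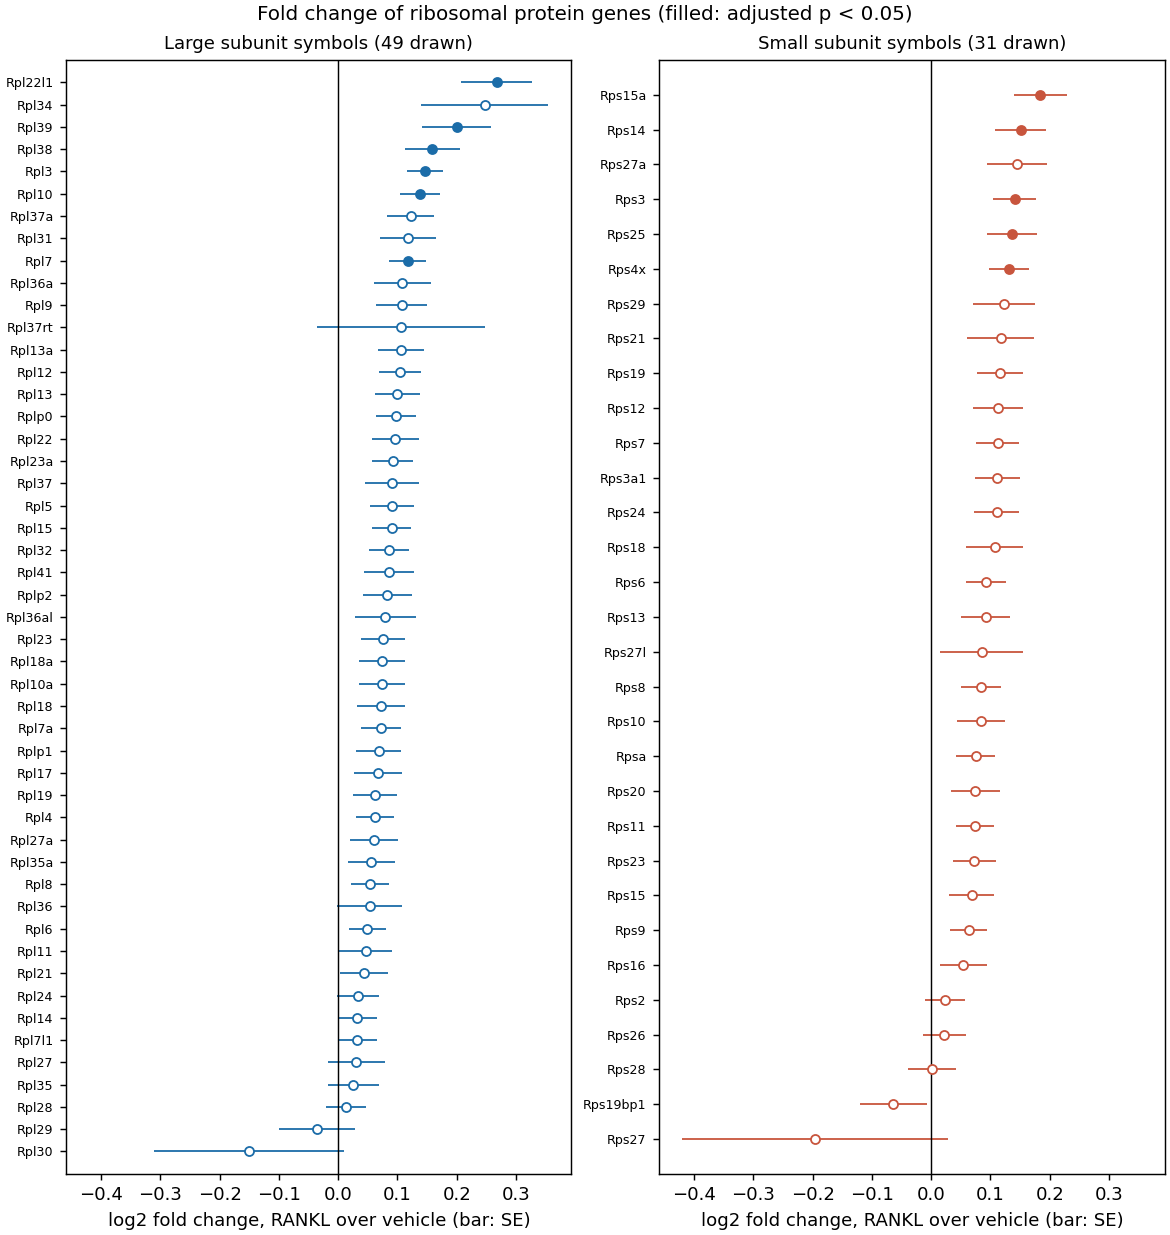
Log2 fold change of RANKL over vehicle (horizontal axis) for the 49 large and 31 of the 33 small subunit symbols, with bars of 1 standard error and filled points for genes with an adjusted p under 0.05. All but 4 of the points sit right of 0, and filled points are spread over both panels.

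Among the large subunit genes that rose, Rpl3, whose protein lies close to the peptidyl transferase centre, had the smallest p. It stood at 246, 241 and 247 CPM in the vehicle libraries and at 268, 275 and 269 CPM in the RANKL libraries. The groups were separate and the spread within each was narrow, 245 ± 3.36 against 271 ± 3.88 CPM (mean ± SD, n = 3 in each). The log2 fold change was 0.15 ± 0.03 (SE), with an adjusted p of 0.0052 by edgeR. Rpl3 lies on chromosome 15 of mm10, from 80077791 to 80091868 on the minus strand, and its exons overlap another gene, Gm22077, on the same strand.

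Rpl22l1, a paralog of Rpl22 on chromosome 3 (28805436 to 28807424), had the highest log2 fold change of the set. Its vehicle libraries held 17.7, 18.4 and 20.5 CPM and its RANKL libraries 22.8, 22.6 and 22.7 CPM. The RANKL libraries were nearly alike and lay above each vehicle library, with a log2 fold change of 0.27 ± 0.06 and an adjusted p of 0.00937 by edgeR, a call that ended without vehicle replicate 1 (highest adjusted p over the 22 settings 0.108). Its parent Rpl22 had a log2 fold change of 0.10 ± 0.04 (adjusted p = 0.133 by edgeR).

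Rpl10, which completes the late assembly of the large subunit near the tRNA sites, rose from 344, 352 and 371 CPM to 397, 391 and 386 CPM. Rpl7, another core protein of the large subunit, rose from 477, 490.3 and 503 CPM to 527, 535 and 533 CPM. In both genes vehicle replicate 1 was the lowest library and no RANKL library reached down to the vehicle group. Their log2 fold changes were 0.14 ± 0.03 for Rpl10 (adjusted p = 0.0148 by edgeR) and 0.12 ± 0.03 for Rpl7 (adjusted p = 0.0221 by edgeR). Of 22 alternative settings, 4 ended the call of Rpl10 and 9 that of Rpl7, among them leaving out vehicle replicate 1, vehicle replicate 2 or RANKL replicate 2 for both genes (highest adjusted p by edgeR or limma 0.104 and 0.162).

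The small subunit gene with the highest log2 fold change was Rps15a. It had 125, 137 and 139 CPM under vehicle and 148, 160.1 and 146 CPM under RANKL. RANKL replicate 2 was the highest library and the groups did not overlap (log2 fold change 0.18 ± 0.04, adjusted p = 0.0145 by edgeR). Its call ended without vehicle replicate 1 and without RANKL replicate 2 (highest adjusted p over the 22 settings 0.081 by edgeR). Its deposited gene length of 5132 bases was the longest of the set, and a long model lowers the level per length, 26.0 ± 1.46 RPKM under vehicle.

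Rps3 and Rps4x are core proteins of the small subunit. Rps3, at the entry of the messenger RNA path, went from 297, 317 and 328 CPM to 350.4, 345 and 343 CPM. Rps4x, the X-linked copy, went from 349.6, 376 and 372 CPM to 402, 399 and 401 CPM. For both genes vehicle replicate 1 was the lowest library and the groups were separate. Log2 fold changes were 0.14 ± 0.04 for Rps3 and 0.13 ± 0.03 for Rps4x, with adjusted p of 0.02 and 0.0186 by edgeR in that order. The call ended in 4 of 22 settings for Rps3 and 5 for Rps4x, in both without vehicle replicate 1 and without RANKL replicate 2 (highest adjusted p by edgeR 0.0863 and 0.205).

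Also among the genes that rose, and named after their values were seen, were Rps14, Rpl39, Rpl38 and Rps25. Their log2 fold changes were 0.14 to 0.20, with adjusted p of 0.0338 to 0.0482 by edgeR. None of these calls held without vehicle replicate 1, without vehicle replicate 2 or without RANKL replicate 2. Nor did any hold when only the length trend was removed. In Rpl39 vehicle replicate 3, at 82.8 CPM, stood above RANKL replicate 3, at 81.8 CPM. In Rpl38 the same libraries stood at 63.7 and 63.5 CPM. The groups of these 2 small proteins of the large subunit therefore overlapped, while those of Rps14 and Rps25 did not.

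The acidic stalk of the large subunit, which recruits elongation factors, consists of Rplp0, Rplp1 and Rplp2. None of the 3 passed the test. Rplp0 had 699.8, 686 and 713 CPM under vehicle and 776, 751 and 719 CPM under RANKL, separate groups with a log2 fold change of 0.10 ± 0.03 (adjusted p = 0.0782 by edgeR). Rplp1 had 264, 277 and 286 CPM against 299, 294 and 276 CPM. Rplp2 had 147, 150.4 and 157 CPM against 166, 166 and 149.6 CPM. In both of these RANKL replicate 3 fell within the vehicle range, with 95% intervals of the log2 fold change of -0.01 to 0.15 for Rplp1 and -0.01 to 0.17 for Rplp2.

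The remaining paralogs did not pass the test. Rpl7l1, a relative of Rpl7, had 107, 106 and 108 CPM under vehicle and 111, 106 and 111 CPM under RANKL (95% interval of the log2 fold change -0.04 to 0.10). Rpl36al, a close copy of Rpl36a, had 44.8, 48.6 and 52.6 against 51.0, 52.7 and 50.6 CPM (interval -0.03 to 0.19). Rps27l, known as a p53 target, had 33.6, 37.7 and 39.0 against 34.7, 42.8 and 39.5 CPM (interval -0.06 to 0.23). Rps19bp1, the symbol that is no subunit, had 24.5, 23.2 and 26.1 against 23.0, 22.9 and 24.8 CPM, with a log2 fold change of -0.06 ± 0.06.

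None of the 4 most abundant genes per length passed the test. Rpl41, whose product is among the shortest known proteins, led with 929 ± 43.9 RPKM (CPM per kilobase of gene) under vehicle, followed by Rps15 with 791 ± 37.8, Rpl8 with 703 ± 15.5 and Rpl32 with 608 ± 16.8 RPKM (SD, n = 3). By library, Rpl41 had 398, 416 and 437 CPM under vehicle and 447, 464 and 417 CPM under RANKL. Rps15 had 392, 416 and 431 against 433, 444 and 421 CPM. In both genes vehicle replicate 3 and RANKL replicate 3 lay in the other group's range. In Rpl32 the groups did not overlap, at 297, 311 and 312.0 against 333, 330 and 312.9 CPM, while in Rpl8 they did. Log2 fold changes of the 4 genes were 0.05 to 0.09, with adjusted p of 0.118 to 0.308 by edgeR. The median of all 82 genes was 0.085.

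At the other end, 4 genes stood far below the rest, although Rps27, Rpl30 and Rpl34 encode core subunits. Rps27 had 0.869 ± 0.159 CPM under vehicle, from 24 to 35 counts in each of the 6 libraries. Rpl30 had 2.27 ± 0.320 CPM, Rpl37rt 3.87 ± 0.729 CPM and Rpl34 4.14 ± 0.172 CPM, where the median gene of the set had 191.6 CPM. Rpl34 had 3.96, 4.15 and 4.31 CPM under vehicle and 4.85, 5.35 and 4.53 CPM under RANKL, separate groups that did not pass the test (log2 fold change 0.25 ± 0.11, adjusted p = 0.152 by edgeR). Rpl30 and Rps27 had the lowest log2 fold changes of their subunits, -0.15 ± 0.16 and -0.20 ± 0.22, with 95% intervals of -0.49 to 0.19 and -0.68 to 0.28. The cause of the low levels was not tested.

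Ribosomal protein genes have many processed pseudogenes, and reads from near-identical copies can be lost or misplaced in counting. Over all 75-base windows of a gene's coding transcripts in GENCODE M21, the share also found in another annotated gene ranged from 0% to 89.2% over the 82 genes, with a median of 31.6%, and 25 genes were above 50%. Either strand was searched, so a gene that overlaps at the same place also counts. The share was 89.2% for Rpl35, 64.0% for Rpl3, 65.3% for Rpl30, 42.4% for Rps27 and 8.35% for Rpl34. Of the 5 genes sharing windows with Rpl35, 3 were pseudogenes. For Rps3, which was called higher, it was 0%. The rank correlation of this share with the fold change over the 82 genes was -0.04, and with the level per length 0.09, as descriptions over genes that share libraries. Exons of 28 genes overlapped another gene on the same strand, for the most part small nucleolar RNA genes, and those of 19 a gene on the opposite strand. The sources used here do not say how the counting treated such reads.

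As a share of each library's counts, the 82 genes took 1.71%, 1.80% and 1.89% in the vehicle libraries and 1.96%, 2.00% and 1.90% in the RANKL libraries. The 95% Wilson intervals of these shares reach at most 0.00473 percentage points to either side and cover counting error only. RANKL libraries were all above vehicle libraries, with RANKL replicate 3 and vehicle replicate 3 nearly level. The means were 1.80% ± 0.0882 and 1.95% ± 0.0474 (SD, n = 3), a difference of 0.152 percentage points, while the vehicle libraries alone spanned 0.176. With TMM-scaled totals the order of these 2 libraries turned, 1.89% in vehicle replicate 3 and 1.88% in RANKL replicate 3, and the difference of the means was 0.112 percentage points. With the 10 genes of highest count left out of the totals it was 0.162 percentage points.

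**Figure D2:**
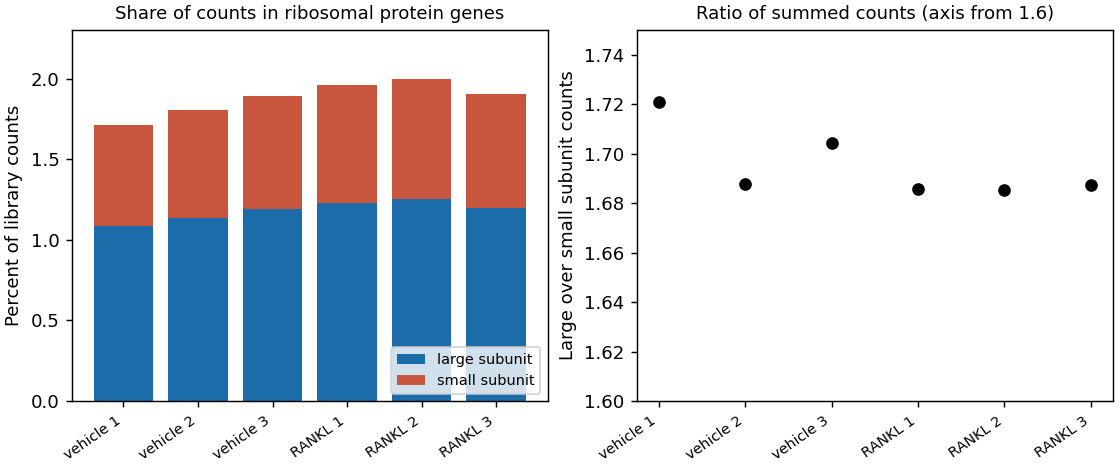
Left, percent of library counts (vertical axis) in large and small subunit genes, stacked, for the 3 vehicle and 3 RANKL libraries. Right, the ratio of large to small subunit counts on an axis from 1.6; totals rise from 1.71% in vehicle replicate 1 to 2.00% in RANKL replicate 2, and ratios stay between 1.69 and 1.72.

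Large and small subunit genes were compared as descriptions, since genes of a subunit share libraries and are not replicates. The test called 6 of 49 large and 7 of 33 small subunit symbols higher, 12.2% and 21.2% against 5.35% of all genes, with medians of 0.080 and 0.093 on the log2 scale. Without vehicle replicate 1 these counts were 1 and 0, without RANKL replicate 2 they were 2 and 0, and with the length trend removed 3 and 2. The difference of the medians, large minus small, was -0.013, and the same difference varied between replicates of a group with an SD of 0.014. Among core subunits the medians were 0.076 for 45 large and 0.107 for 31 small genes, with 5 and 7 higher. That gap was wider than the one over all symbols and wider than the SD of 0.014, which was found over all symbols. An SD between replicates was not computed for core subunits alone. Summed counts of large over small subunit genes gave ratios of 1.72, 1.69 and 1.70 in the vehicle libraries and 1.69, 1.69 and 1.69 in the RANKL libraries. Vehicle replicate 1 had the highest ratio, and vehicle replicate 2 was nearly level with the RANKL libraries.

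The 82 genes were short by the lengths behind the deposited tables, with a median of 705.5 bases against 2933 for all genes, and 67 of them fell in the shortest of 10 equal length classes, which reached up to 1182 bases. Fold changes of the other genes fell with length. The median log2 fold change was 0.050 in the 1196 other genes of the shortest class and -0.039 in the longest class, with 1 exception to a fall at every step. In that shortest class 60 other genes (5.02%) were called higher and 12 (1.00%) lower, where 5.35% and 7.5% of all genes were. Among the 222 of them with a mean of at least 50 CPM over all libraries, 15 (6.76%) were higher and 5 (2.25%) lower, with a median of 0.046. The 15 ribosomal protein genes outside the shortest class had a median of 0.091, with 3 higher (20%). The 67 inside it had a median of 0.085, with 10 higher (14.9%). Rank correlations of fold change with length were 0.02 over the 82 genes and -0.19 over the 12543 others, given as descriptions.

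**Figure D3:**
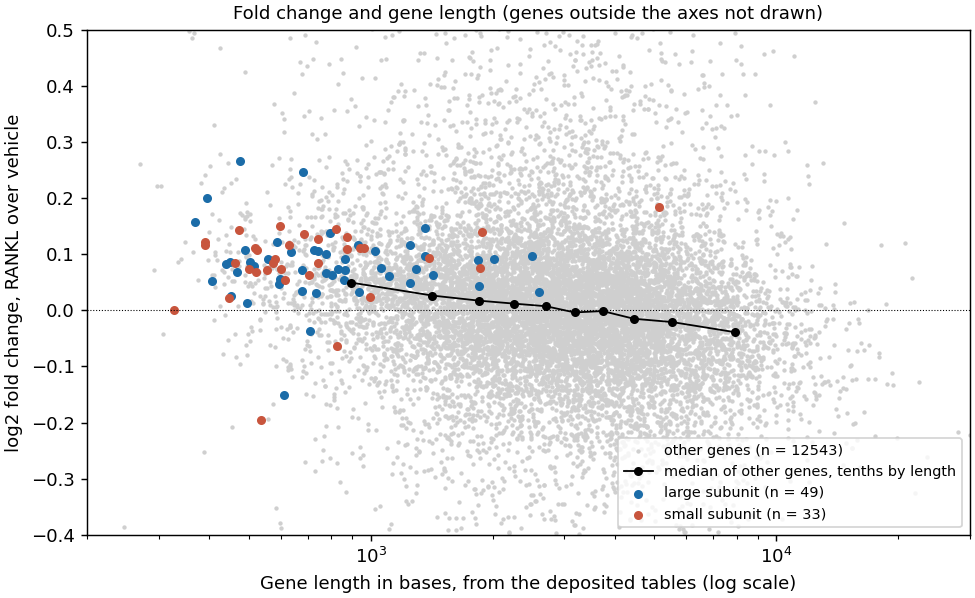
Log2 fold change of RANKL over vehicle (vertical axis) against gene length in bases (horizontal axis, log scale) for other genes in grey, large subunit genes in blue and small subunit genes in red, with the medians of other genes in 10 length classes in black. The black line falls from 0.050 to -0.039, and most coloured points lie above its left end.

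When a smooth trend on length was removed from each library, with the trend fitted without the 82 genes, their median log2 fold change was 0.031, and 62 of 82 lay above 0. Then 5 genes were called higher, Rpl3, Rpl22l1, Rps3, Rps15a and Rpl10, where 6.56% of all genes were. Rps28, a small subunit gene of 327 bases and the shortest of the set, was called lower, where 7.24% of all genes were, although without that step its log2 fold change was 0.00 ± 0.04. With scaling to total counts 29 of the 82 were called higher, where 8.48% of all genes were, and the median was 0.116 while that of all genes was 0.035. The direction of the median was the same in every scaling tried.

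Individual libraries carried much of the difference. Vehicle replicate 1 was the lowest of the 6 libraries for 71 of the 82 genes, and RANKL replicate 2 was the highest for 47 and RANKL replicate 1 for 23. As median log2 deviations from the mean of the 6 libraries, the genes stood at -0.100, -0.043 and 0.023 in the vehicle libraries and at 0.057, 0.070 and 0.0001 in the RANKL libraries. Vehicle replicate 3 thus lay above RANKL replicate 3. The span within vehicle, 0.122, was wider than the difference between the group means, 0.082. Without vehicle replicate 1 only Rpl3 was called higher, where 3.37% of all genes were, and the median was 0.053. Without RANKL replicate 2 there were 2 genes higher (2.44%, where 3.71% of all genes were) and without vehicle replicate 2 there were 4 (4.88%, where 2.95% were). Without vehicle replicate 3 there were 20 (24.4%, where 3.58% were) and without RANKL replicate 3 there were 24 (29.3%, where 5.91% were).

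Other short genes moved with the same libraries. Other genes of the shortest length class stood at -0.058, -0.026 and 0.013 in the vehicle libraries and at 0.043, 0.044 and -0.011 in the RANKL libraries, the same order of libraries as the ribosomal protein genes over a narrower range. The longest class ran the opposite way, at 0.056, 0.023 and -0.017 and then -0.023, -0.038 and 0.003. The part of this length pattern in the ribosomal protein result was not tested beyond the fits with the trend removed. Mitochondrial ribosomal protein genes, 77 in number, had 2 higher (2.60%, against 5.35% of all genes) and 1 lower (1.30%, against 7.5%). Their median log2 fold change was 0.024.

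**Figure D4:**
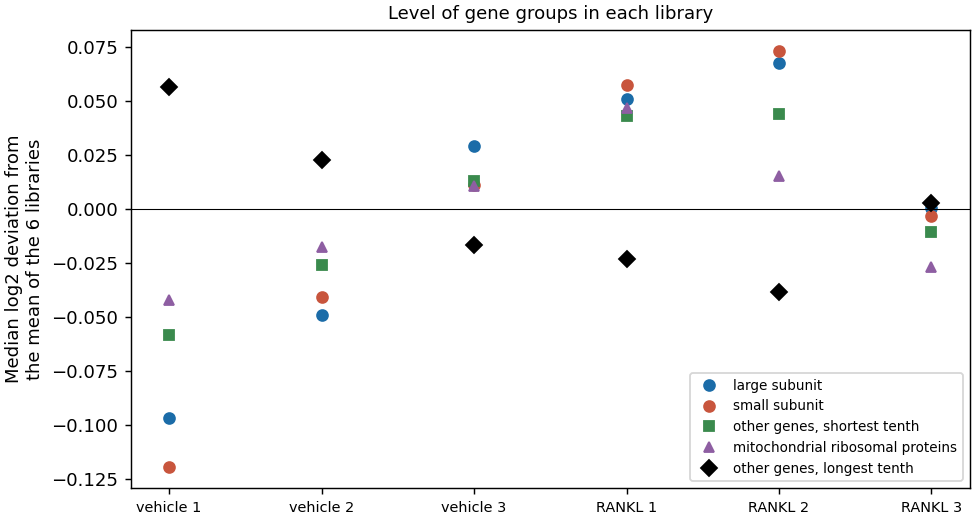
Median log2 deviation of each gene group from the mean of the 6 libraries (vertical axis), by library (horizontal axis). Large and small subunit genes are lowest in vehicle replicate 1 and highest in RANKL replicate 2, at -0.100 and 0.070 for all 82 genes, other short genes follow in the same order, and the longest genes run the opposite way.

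**Figure D5:**
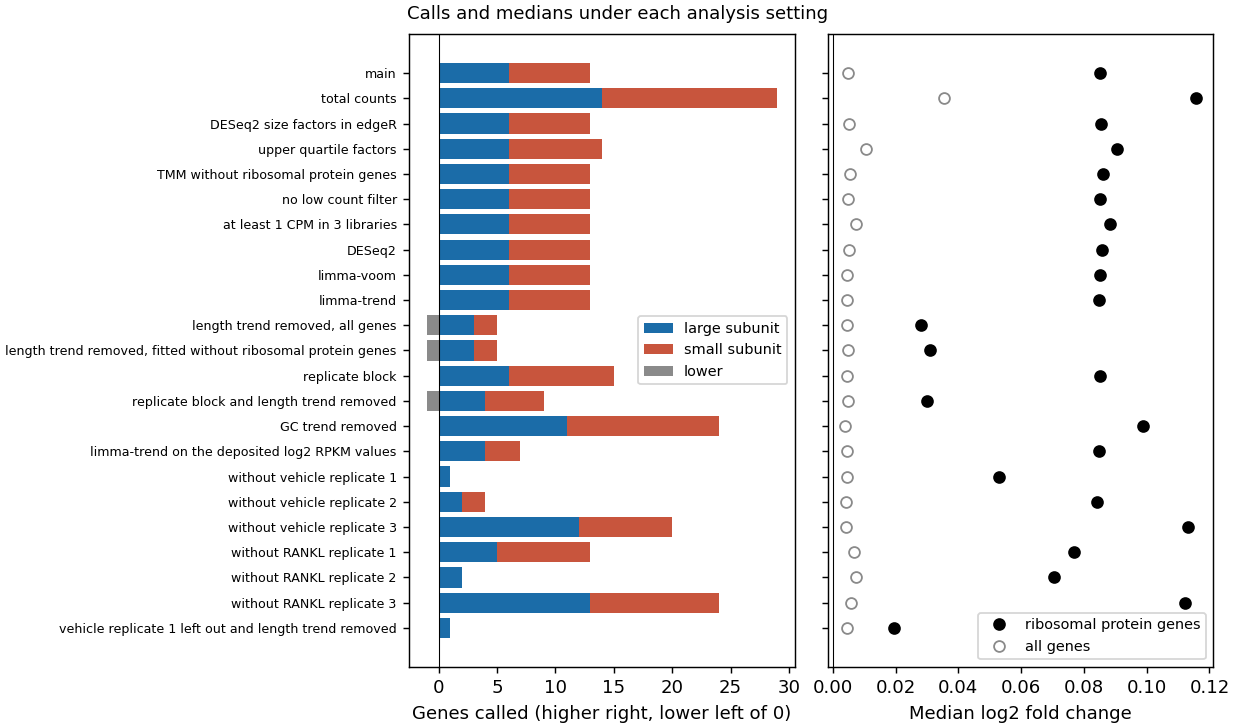
Left, number of ribosomal protein genes called higher (coloured by subunit) and lower (grey) under each analysis setting; right, median log2 fold change of the 82 genes (black) and of all genes (open). Calls range from 1 to 29 higher and 0 to 1 lower, and the median of the 82 genes stays above 0.

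Genes that make a ribosomal or ribosome-bound protein under other names were also measured. Fau, which encodes a ubiquitin-like fusion with RPS30, had 149.8, 154 and 154 CPM under vehicle and 174, 165 and 158 CPM under RANKL, separate groups with a log2 fold change of 0.12 ± 0.04 (adjusted p = 0.0442 by edgeR). The call of Fau ended in 10 of 22 settings, among them each removal of the length trend and leaving out any 1 library other than RANKL replicate 3 (highest adjusted p by edgeR 0.214). Rack1, listed under its older symbol Gnb2l1, a scaffold on the small subunit, had 547, 566 and 569 against 614, 595 and 583 CPM, with a log2 fold change of 0.09 ± 0.03 (adjusted p = 0.078 by edgeR).

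Other genes known for TOP starts were read against all genes, of which 5.35% were higher, 7.5% lower and 27.2% at an unadjusted p under 0.05. Among the 4308 genes outside the 82 with a mean of at least 50 CPM, 5.20% were higher and 14.8% lower. An unadjusted p under 0.05 by edgeR was reached by 1601 of them. Of 19 elongation factors and other TOP genes 0 were higher at the adjusted threshold, 8 had an unadjusted p under 0.05 and 1 was lower, with 14 above 0 and a median log2 fold change of 0.033. The lower gene was Naca, the nascent chain binding protein, which fell from 1762, 1634 and 1555 CPM to 1347, 1317 and 1373 CPM, with no overlap (log2 fold change -0.29 ± 0.04, adjusted p = 0.000418 by edgeR). Naca also has a long form known from muscle, and its deposited length was 7145 bases. Among 8 noncoding hosts of small nucleolar RNAs with TOP starts, 2 were higher, 7 lay above 0 and the median was 0.15. Gas5 rose from 24.6, 24.8 and 25.8 CPM to 30.1, 31.5 and 31.5 CPM, and Snhg5 had a log2 fold change of 0.30 ± 0.08 (adjusted p = 0.0182 by edgeR), a call that ended without vehicle replicate 1 and without vehicle replicate 2 (adjusted p up to 0.0975).

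Of 30 ribosome biogenesis factors 4 were higher (13.3%, against 5.35% of all genes) and 1 lower (3.33%, against 7.5%), with a median log2 fold change of 0.051. Gnl3 (nucleostemin) rose from 54.9, 53.3 and 54.8 CPM to 59.6, 60.1 and 61.2 CPM. Dkc1 (dyskerin, which modifies ribosomal RNA) rose from 26.9, 28.4 and 27.9 CPM to 31.2, 30.7 and 33.0 CPM. Both rises left the groups separate, and the call ended without vehicle replicate 2 for Gnl3 and without vehicle replicate 1 or RANKL replicate 3 for Dkc1 (adjusted p up to 0.0688 and 0.0798 by edgeR). Of 14 genes of the RNA polymerase I machinery, which transcribes ribosomal RNA, 0 were higher at the adjusted threshold, 4 had an unadjusted p under 0.05, and Polr1a, its catalytic subunit, was lower with a log2 fold change of -0.14 ± 0.04 (adjusted p = 0.0207 by edgeR). That 1 lower gene is 7.14% of the list, near the 7.5% of all genes, and its call ended in 6 of 22 settings, among them total counts and leaving out vehicle replicate 1, vehicle replicate 2 or RANKL replicate 1 (highest adjusted p by edgeR or limma 0.108). The precursor Rn45s had 7143 ± 1799 CPM under vehicle and 6629 ± 1402 under RANKL, so its libraries overlapped widely (95% interval of the log2 fold change -0.42 to 0.20).

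Of 19 genes of mTORC1 and S6 kinase control 0 were higher (5.35% of all genes were) and 6 lower (31.6%, against 7.5%), at a median log2 fold change of -0.07, and 10 had an unadjusted p under 0.05 (27.2% of all genes). Tsc2, which restrains mTORC1, fell from 169, 170.2 and 168 CPM to 154, 149 and 152 CPM. Rptor, the subunit that binds mTORC1 substrates, fell from 268, 262 and 257 CPM to 244, 238 and 229.6 CPM. The groups were separate in both genes, and the log2 fold changes were -0.15 ± 0.03 in each. The genes of this list had a median length of 3359 bases, and Tsc2 and Rptor have 6425 and 7020 bases. Other genes of their length classes had medians of -0.021 and -0.039, with 13.6% and 18.0% called lower. Among the 4308 genes outside the 82 with a mean of at least 50 CPM, 14.8% were called lower. An unadjusted p under 0.05 by edgeR was reached by 1601 of those 4308. The call of Tsc2 held in all 22 settings, each removal of the length trend included. That of Rptor ended only with vehicle replicate 1 left out and the length trend removed (adjusted p = 0.0945 by edgeR). The part of length in these falls was not tested further.

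Markers of cell state were read against the 5.35% of all genes that were higher and the 7.5% that were lower. Of 8 cycling cell genes 6 were higher, with summed levels of 147 to 154 CPM under vehicle and 187 to 216 CPM under RANKL. Mki67 rose by a log2 fold change of 0.55 ± 0.06 and Cdk1 by 0.51 ± 0.07 (adjusted p = 1.9e-05 and 0.000361 by edgeR). Of 10 myotube markers 6 were lower, including Myh8 (-0.35 ± 0.05) and Cacna1s (-0.22 ± 0.03), while 3 lay above 0 and 0 were called higher. Their sums were 22825 to 25654 CPM under vehicle and 21043 to 21731 under RANKL. Ttn, part of these sums, ran from 3082 to 5425 CPM within vehicle. The median length of these markers was 4487.5 bases, within the range where other genes had medians below 0. In the length class that holds this median 10.4% of other genes were called lower. Among genes outside the 82 with a mean of at least 50 CPM, 14.8% were called lower. Of 6 myoblast markers 1, Cdh15, was lower (-0.29 ± 0.03) and 0 higher. Of 7 endothelial and fibroblast markers 4 were measured, with sums of 344 to 362 CPM under vehicle and 365 to 373 under RANKL, and 0 were called. In bulk RNA, fewer cells of a type and less RNA per cell cannot be told apart, and the part of these shifts in the ribosomal protein result was not tested.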

How the data were processed

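RNA was sequenced in 75-base paired reads from 3 vehicle and 3 RANKL libraries, and per the labels isolation and sequencing were done together. The raw counts that the authors deposited were whole numbers for 12625 symbols, with 4708 blank lines left out. The submitters' processing notes name FastQC, STAR, edgeR and mm10. Versions, the counter, the annotation and the use of strand are not stated there. In every gene the third-highest library had at least 0.504 CPM, so low genes had been removed before deposit. The log2 values that the authors deposited were log2 RPKM with TMM factors, a reading that rests on the values, and gave the gene lengths.

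Counts were tested with edgeR 4.0.16 in R 4.3.3 (TMM, filterByExpr, which removed 0 genes and so left all 82 members, quasi-likelihood F test, Benjamini-Hochberg over 12625 genes). The SE of a log2 fold change is its absolute value over the square root of F. Length trends were lowess curves (span 0.3) per library on log2 length. Deviations used log2 of CPM plus 0.5. DESeq2 1.42.0 and limma 3.58.1 served as alternatives. The steps were also tested on simulated data, with fold changes larger than any in the 82 genes. Those runs therefore do not show how well changes of the size found here are recovered. Between replicates the chi-square per gene was 3.42 to 9.62, more than sampling noise gives, and no library was merged or dropped.

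The members and gene lists were chosen with earlier results of these data known. Genes named are up to 8 members higher and 8 lower by smallest p, the 4 highest and 4 lowest per length, the paralogs, the stalk, the extremes of fold change in each subunit, Fau, Rack1, and up to 2 called genes per other list; any other is named after its values were seen. A few genes that the rule names are not reported here.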

Additional observations from a re-analysis of the deposited data

How the results depend on the processing

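With DESeq2 size factors, TMM without ribosomal protein genes, either filter, DESeq2, limma-voom and limma-trend, 13 of the 82 genes were higher, and 14 with upper quartile factors. Total counts gave 29 (14 large, 15 small) and, over all genes, 1070 higher and 626 lower. Removing the length trend gave 5 higher (3 large, 2 small) and 1 lower whether or not the 82 genes entered the trend, with medians of 0.028 and 0.031. Settings chosen after seeing the data gave 24 for a GC trend removed (11 large, 13 small), 7 for limma-trend on the deposited log2 RPKM values (3 small), and 1 with vehicle replicate 1 left out and the length trend removed (1 large, 0 small, median 0.019, large minus small 0.0032, 573 of all genes lower); core subunits alone gave a large minus small difference of -0.031. Leaving out each library gave 1 to 24 of the 82 higher, 1 to 13 large, 0 to 11 small, medians of 0.053 to 0.113, and 373 to 746 genes higher and 537 to 880 lower among all, and with 2 libraries in a group the spread is shared with the other group. Rpl3 kept its call in all 22 alternatives.

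Among the named genes, sign changed only in ones not called. With the length trend removed (fitted on all genes, without the 82, and with the block), Rps15 had log2 fold changes of -0.0086, -0.0052 and -0.0052, Rplp2 -0.0043, -0.00050 and -0.0010 and Rplp1 -0.015, -0.011 and -0.011. With vehicle replicate 1 also left out, Rps15 had -0.015, Rplp1 -0.012, Rpl37rt -0.0027, Rpl36al -0.024 and Rps27l -0.027. The cause was not tested.

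The replicate block gave 15 higher, 6 large and 9 small, with a median of 0.085, and 9 higher and 1 lower with the length trend removed as well (median 0.030). Deviations of same-numbered libraries correlated at 0.118, 0.053 and 0.018 for numbers 1, 2 and 3. Not every library correlated best with its own number, as vehicle replicate 3 reached 0.050 with RANKL replicate 2. Between vehicle replicates 1 and 2, 1 and 3, and 2 and 3 the chi-square per gene was 5.80, 8.53 and 3.42. Between the same numbers of RANKL it was 6.10, 9.62 and 3.51. These values do not settle whether same-numbered libraries were paired. With at least 605263 counts in the 82 genes per library, counting error is small beside the spread between libraries; for Rps27, with 24 to 35 counts, depth limits the estimate.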

Other observations

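The 4 pseudogene symbols that the name rule left out, Rpl14-ps1, Rps15a-ps4, Rps15a-ps6 and Rps19-ps3, were measured at low levels and 0 of them passed edgeR's threshold, with 1, Rps15a-ps4, at an unadjusted p under 0.05. Rps15a-ps6 had 5.56, 6.31 and 6.91 CPM under vehicle and 7.19, 7.46 and 6.46 CPM under RANKL. Rps15a-ps4 had 1.39, 1.62 and 1.79 CPM under vehicle and 2.47, 1.94 and 1.99 CPM under RANKL, with no overlap between groups (adjusted p = 0.117 by edgeR). Rps15a, the gene they derive from, was called higher.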
